A study of Homo sapiens with 2 samples.

Results

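Metallothioneins, the zinc-responsive factor that drives them and transporters that move zinc across membranes were followed in HSC-3 cells treated with FIN56. The 10 genes were chosen by symbol: the metallothioneins MT1A, MT1E, MT1F, MT1G, MT1M, MT1X and MT2A, the factor MTF1, and the transporters SLC30A1 and SLC39A14. They are 10 of the 60616 genes measured. HSC-3 is an established cell line of head and neck squamous cell carcinoma. The compound FIN56 is an inducer of ferroptosis, in which iron-dependent peroxidation of membrane lipids kills cells. The study compared HSC-3 cells given 1 µM FIN56 for 48 h with HSC-3 cells given the solvent, 0.1% DMSO, for which the labels state no time. Both were grown in the same serum-containing medium, and 1 polyA-selected, stranded RNA-seq library was made from each.

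The DMSO library held 70184517 expected counts and the FIN56 library 73062209. An expected count is the number of reads assigned to a gene after reads that match several genes are shared out. Levels are given as FPKM, which divides by effective gene length and library size and so allows genes to be set beside each other. Effective lengths printed below were worked back from expected counts, library totals and FPKM. Differences are given as FIN56 over DMSO. With 1 library per condition, each difference compares 2 libraries with no replicate check and no test was made. Intervals in brackets are exact 95% intervals of the ratio of expected counts. They cover counting error only, and can be too narrow even for that, because reads counted without molecular identifiers can be copies of each other.

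Metallothioneins are small, cysteine-rich proteins that bind zinc and copper and can take up toxic metals such as cadmium. When free zinc rises, MTF1 binds metal response elements in their promoters and in that of SLC30A1, which exports zinc from the cell. SLC39A14 works the other way and brings zinc, iron and manganese into the cytosol.

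Squamous keratins were abundant in both libraries. KRT5 was at 2078 FPKM with DMSO and 1647 with FIN56, and the 7 squamous markers summed to 4479 and 4198 FPKM. Of the 7, 4 had an FPKM ratio above 1, EPCAM the highest at 1.44, and 3 below, of which CDH1 at 0.997 was above 1 by counts (1.03), with a median log2 ratio of 0.11. Of the leukocyte markers reported here, PTPRC and CD3E were at 0 counts in both libraries, and CD14 was at 3.62 and 5.15 FPKM. Endothelial markers summed to 0.08 FPKM in each library, most of it VWF. Fibroblast markers summed to 4.90 and 2.82 FPKM, of which COL1A1 made 4.25 and 2.19, whereas COL3A1 had 0 counts and 1 count. COL1A1 had an FPKM ratio of 0.515 and a count ratio of 0.587, with effective lengths of 3081 and 3512 bases, whereas LUM had 46 and 45 expected counts and DCN 10 and 13. The part of these markers in the differences below was not tested.

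Of the 10 genes, 8 had an FPKM above 0 in both libraries. None of the 8 reached an FPKM ratio of 1.5, where 14.7% of the 24454 genes above 0 in both libraries did, and 1, MT2A, was at 1/1.5 or less, where 17.3% of those genes were. Where each library had to hold 10 or more expected counts, as it did for all 8, the shares were 7.62% and 11.1%. The counts of 0 and 1 are thus near or below the background and no result about the 10 genes as a group.

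MT2A, the most widely expressed metallothionein, lies at chr16:56608584-56609497 on the plus strand of GRCh38 and has 3 exons. Expected counts were 72429 with DMSO and 34386 with FIN56, or 3376 and 1539 FPKM. MT2A was thus 2.19-fold lower in the FIN56 library (FPKM ratio 0.456; count ratio 0.450 to 0.462). In bulk RNA, fewer cells with a transcript and less of it per cell cannot be told apart. By FPKM, MT2A ranked 16 among all genes with DMSO and 50 with FIN56. Its ratio lay at percentile 0.874 of the 12638 genes that reached 1 FPKM in both libraries, whose 5th and 95th percentiles were 0.633 and 1.45. Of the 105 genes with a mean FPKM of 1000 or more, MT2A had the lowest ratio. The next was S100A2 at 0.494, a gene named here after its value was seen, and the median of the 105 was 0.870, below 1. Of 9 scalings and pseudocounts, MT2A missed the threshold in the rlog values, which pull differences toward 0, with a ratio of 0.720.

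**Figure D1:**
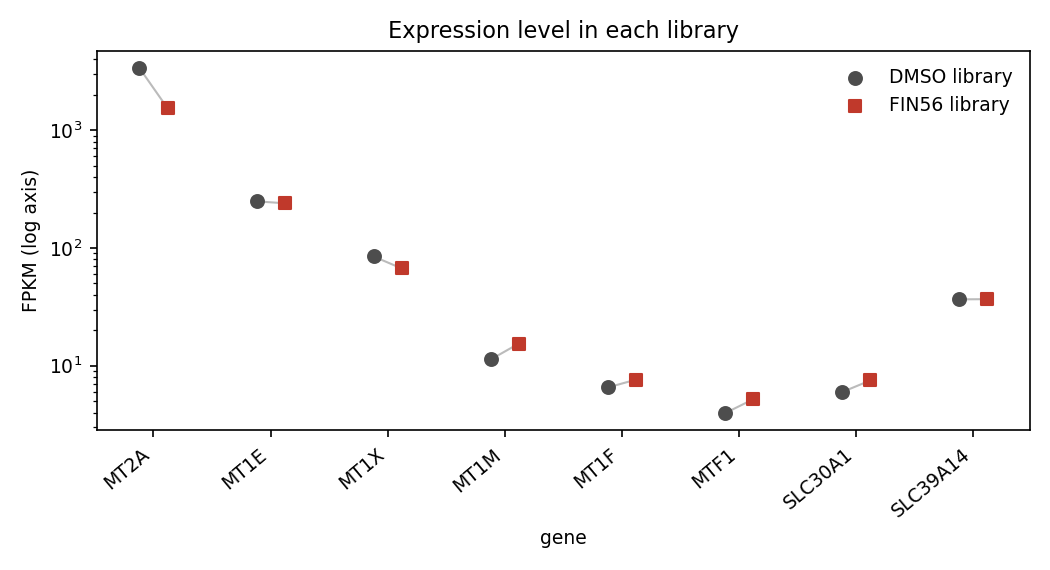
FPKM on a log axis of the 8 genes above 0 in both libraries, with 1 point per library (circles, DMSO; squares, FIN56) and a line joining them. MT2A lies above the other genes in both libraries, at 3376 and 1539 FPKM, and has the widest gap between its points.

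Promoters are shown because these genes share a factor. The RefSeq table used here (GRCh38.p14) matched 4 of the 10 genes: MT2A, MT1X, MTF1 and SLC30A1. Not matched were MT1A, MT1E, MT1F, MT1G, MT1M and SLC39A14. The 250 bases before the start of 3 of them are printed 5′ to 3′ on the strand of the gene, at chr16:56608334-56608583 (plus) for MT2A, chr16:56682220-56682469 (plus) for MT1X and chr1:211579162-211579411 (minus) for SLC30A1. Capitals mark the core of the metal response element, searched as TGCACNC and TGCGCNC on both strands, which cannot match at the same base of 1 strand.
MT2A promoter: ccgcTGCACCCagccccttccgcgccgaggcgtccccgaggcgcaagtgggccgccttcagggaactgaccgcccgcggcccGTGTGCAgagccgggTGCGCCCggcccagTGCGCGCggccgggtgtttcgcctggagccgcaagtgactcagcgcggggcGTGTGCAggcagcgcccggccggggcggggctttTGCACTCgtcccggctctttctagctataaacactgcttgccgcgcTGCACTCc
MT1X promoter: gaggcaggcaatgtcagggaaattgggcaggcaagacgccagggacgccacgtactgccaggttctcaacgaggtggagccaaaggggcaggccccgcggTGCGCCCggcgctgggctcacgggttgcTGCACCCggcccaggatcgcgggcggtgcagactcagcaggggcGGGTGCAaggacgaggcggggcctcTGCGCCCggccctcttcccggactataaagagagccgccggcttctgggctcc
SLC30A1 promoter: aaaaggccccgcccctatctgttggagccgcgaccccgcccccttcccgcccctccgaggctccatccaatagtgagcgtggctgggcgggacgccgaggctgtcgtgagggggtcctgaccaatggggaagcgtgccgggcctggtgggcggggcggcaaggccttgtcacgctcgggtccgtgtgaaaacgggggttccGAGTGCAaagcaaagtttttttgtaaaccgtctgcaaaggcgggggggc

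The MT2A window held 7 matches, 5 of TGCACNC and 2 of TGCGCNC, and 5 of the 7 were on the strand of the gene. At least 7 matches were found in 11 of the 35116 promoters of the table (0.0313%). MT1X had 4 matches, a number reached by 0.370% of promoters. SLC30A1 had 1 match, and 24.8% of promoters had at least 1, whereas MTF1 had 0. A match describes these letters and is not evidence that the factor binds. Among the other metallothioneins in the table, MT1H had 8 matches and MT1B and MT4 had 3 each, and these 3 genes were at 0 counts in both libraries. MT1H thus held more matches than MT2A, and a relation between the number of matches and the level was not tested.

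MT1E was the most abundant of the MT1 genes, the group of closely related copies that follow MT2A on chromosome 16. It had 5349 and 5367 expected counts, or 249 and 239.6 FPKM, with DMSO and FIN56. Its FPKM ratio was 0.963 (count ratio 0.928 to 1.001), so the interval reached to 1 and no difference was detectable at this depth. MT1X had 1888 and 1557 expected counts, or 84.6 and 67.0 FPKM, and a ratio of 0.791 (0.740 to 0.848). MT1X was therefore lower in the FIN56 library, by less than the threshold and by less than MT2A. Its ratio lay at percentile 16 of the genes that reached 1 FPKM in both libraries.

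MT1M had 236 and 336 expected counts, or 11.3 and 15.4 FPKM. It was higher in the FIN56 library, with a ratio of 1.37 (1.15 to 1.62), at percentile 92 of the genes that reached 1 FPKM in both. MT1F had 206 and 235 expected counts, or 6.54 and 7.61 FPKM. Its FPKM ratio was 1.16, and its count ratio of 1.10 had an interval that held 1 (0.905 to 1.33), so the direction of MT1F was not detectable at this depth. MT1G had 3.02 expected counts with DMSO and 0 with FIN56, and MT1A had 0 in both. A count of 0 allows up to 3 counts, or 0.0427 CPM (counts scaled by the library total) with DMSO and 0.0411 with FIN56, so no fold is given for MT1G and MT1A.

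**Figure D2:**
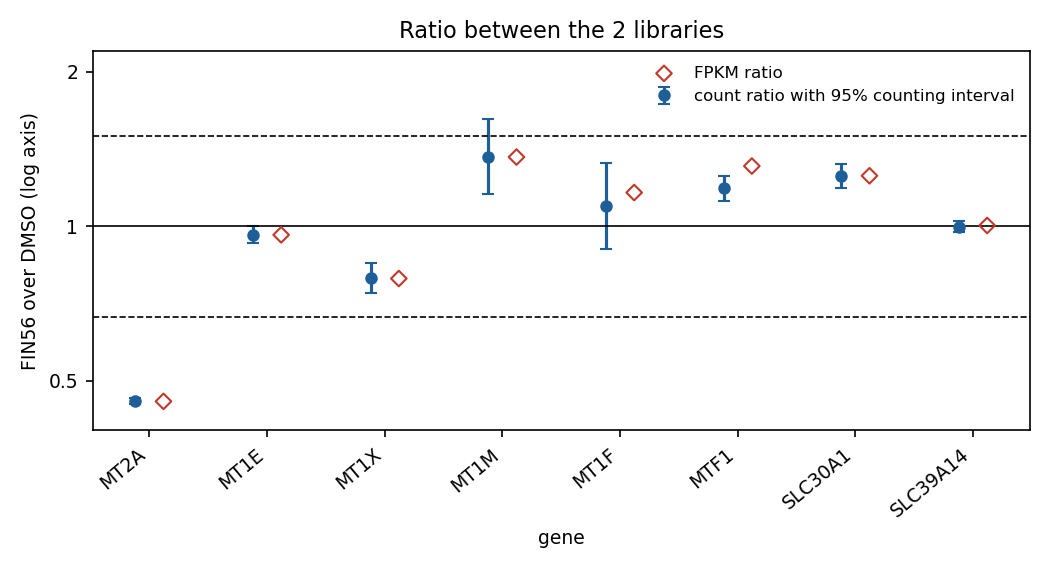
FIN56 over DMSO on a log axis for the 8 genes above 0 in both libraries: filled circles are ratios of expected counts scaled by library totals, with exact 95% counting intervals, and open diamonds are FPKM ratios. Dashed lines mark 1.5 and 1/1.5, and only MT2A, at 0.456, lies beyond a dashed line.

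Over the 5 metallothioneins with a ratio, 2 were above 1 and 3 below. Their median log2 FPKM ratio was −0.05, which is that of MT1E, beside a median of 0 over the 24454 genes. The median gives each gene the same weight, although their levels differ widely. MT2A made 90.6% of the summed FPKM of the 7 metallothioneins with DMSO and 82.4% with FIN56, while the share of MT1E went from 6.68% to 12.8%. The MT2A level was 13.6 times that of MT1E with DMSO and 6.42 times with FIN56.

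A sum over the 7 genes does not depend on how reads were shared out among them, but reads can still move between them and rows outside the 7. The 7 metallothioneins summed to 80111 expected counts with DMSO and 41880.2 with FIN56, a ratio of 0.502 (0.496 to 0.508), and by FPKM to 3727 and 1868, a ratio of 0.501. Without MT2A the sums were 7682 and 7495 expected counts, a ratio of 0.937 (0.908 to 0.968). The lower sum in the FIN56 library was therefore nearly all MT2A.

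The copies resemble each other in their coding sequences, which bears on how reads were assigned. In GENCODE release 44, the coding sequences of MT2A and MT1X are both 186 bases long and differ at 14 bases (92.5% identical). They are printed with the bases of MT1X that differ from MT2A in capitals. Both genes lie on the plus strand of chromosome 16, MT1X at chr16:56682470-56684196.
MT2A coding sequence: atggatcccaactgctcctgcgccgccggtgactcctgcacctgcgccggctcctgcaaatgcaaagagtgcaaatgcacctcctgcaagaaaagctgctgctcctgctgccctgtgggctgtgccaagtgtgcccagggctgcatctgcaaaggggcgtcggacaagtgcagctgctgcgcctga
MT1X coding sequence: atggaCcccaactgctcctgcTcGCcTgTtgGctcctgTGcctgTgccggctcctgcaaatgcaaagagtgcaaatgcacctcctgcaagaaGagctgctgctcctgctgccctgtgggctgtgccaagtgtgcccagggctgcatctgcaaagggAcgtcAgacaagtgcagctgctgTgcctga

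Windows of 50 bases of each canonical transcript were looked up in the transcripts of other genes. For MT1X 51.0% of windows also occurred in another gene, for MT1G 19.9%, for MT1M 14.6%, for MT2A 11.1%, for MT1F 6.12% and for MT1A 5.76%. The gene that held most of the shared MT1X windows has no symbol in that annotation and came ahead of MT1G. The 51.0% need therefore not be overlap with metallothioneins alone. The share of MT1E, 10.3%, is over a canonical transcript of 746 bases, whereas its effective length in these libraries was 306 bases, so it cannot be ranked with the others. The windows came from a later annotation than the one the authors used. Expected counts that are not whole show where reads were divided: those of MT2A, MT1X, MT1G and MTF1 were not whole, within 0.005, whereas those of MT1E, MT1M and MT1F were whole in both libraries. The values of MT2A, MT1X, MT1G and MTF1 are thus uncertain by the reads they share. The other 15 metallothionein rows of the files, pseudogenes included, were at 0 in both libraries for 9 rows. MT1L, a pseudogene of the cluster, was the highest of the 15, with 810 and 1057 expected counts, or 36.9 and 46.3 FPKM, a ratio of 1.25 (1.14 to 1.38). Summed over all 22 rows, the FPKM ratio was 0.509. Adding the 15 rows thus left the family sum in the FIN56 library at about the level it had for the 7 genes.

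**Figure D3:**
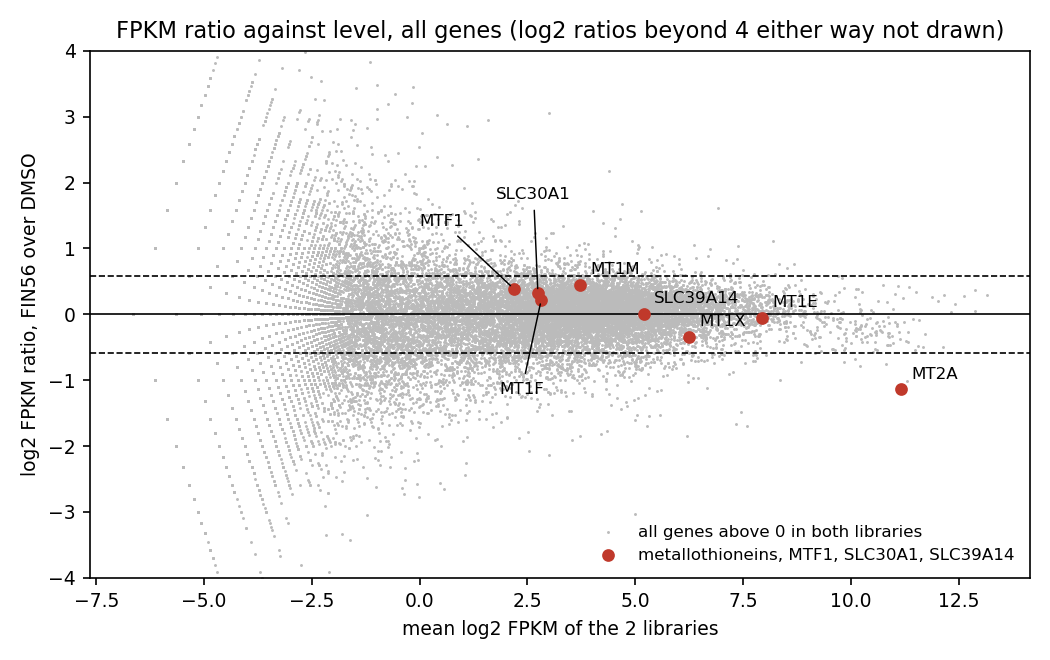
Log2 FPKM ratio against the mean log2 FPKM of the 2 libraries for the 24454 genes above 0 in both (grey) and the 8 genes of zinc handling among them (red); dashed lines mark ratios of 1.5 and 1/1.5, and log2 ratios beyond 4 either way are not drawn. MT2A is at the high end of the level axis with a log2 ratio of −1.13, and the other 7 lie between the dashed lines.

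The protein-coding genes on either side of the cluster were compared with it by position, a choice made after the data had been seen. The cluster of 16 metallothionein rows spans 119 kb of chromosome 16. The nearest 2 genes before it that reached 1 FPKM were OGFOD1 and NUDT21, with FPKM ratios of 1.05 and 1.13. The nearest 2 after it were NUP93 and HERPUD1, with ratios of 0.998 and 1.04. These 4 neighbours lay nearer to 1 by FPKM ratio than MT2A, MT1X and MT1M did. MT1F, at 1.16, was also farther from 1 by FPKM ratio, although the interval of its count ratio held 1. The 25th and 75th percentiles of the 12638 genes that reached 1 FPKM in both libraries were 0.864 and 1.17. The 4 neighbours, MT1E and MT1F all lay between these values. MT1E, at 0.963, was nearer to 1 than OGFOD1, NUDT21 and HERPUD1 and farther than NUP93.

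MTF1, the zinc-sensing transcription factor, had 2157 and 2664 expected counts, or 3.95 and 5.18 FPKM. It was higher in the FIN56 library, with an FPKM ratio of 1.31 and a count ratio of 1.19 (1.12 to 1.256). The FPKM ratio lay at percentile 88.9 of the genes that reached 1 FPKM in both. Counts and FPKM together imply an effective length for MTF1 of 7781 bases with DMSO and 7038 with FIN56. The factor and most metallothionein RNA thus differed in opposite directions between the libraries, and RNA does not measure the factor's activity.

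SLC30A1, the plasma membrane zinc exporter, had 2429 and 3169 expected counts, or 5.97 and 7.49 FPKM. It was higher in the FIN56 library by a ratio of 1.25 (1.19 to 1.32), at percentile 84.6 of the genes that reached 1 FPKM in both. SLC39A14 had 11241 and 11694 expected counts, or 36.6 and 36.7 FPKM, and a ratio of 1.00 (0.974 to 1.03). Its ratio lay above 1 in 6 of the 9 scalings and pseudocounts and below 1 in the other 3. No difference in SLC39A14 was detectable, whereas SLC30A1 was on the same side of 1 in all 9.

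The wider set of 24 zinc transporters, SLC30A1 to SLC30A10 and SLC39A1 to SLC39A14, had 5 genes at 0 in both libraries and 18 above 0 in both. Of the 18, 9 had ratios above 1 and 9 below, with a median log2 ratio of −0.02, and 1 was past the threshold in each direction, beside 14.7% upward and 17.3% downward of all genes above 0 in both. SLC39A8, an importer of zinc and manganese, had 1888 and 3020 expected counts, or 8.90 and 13.45 FPKM, a ratio of 1.51 (1.45 to 1.63). It was not past the threshold in rlog values, after centring on effective length or with a pseudocount of 1 FPKM. SLC39A5 was the other, with 2 counts and 1 count, and is named after its value was seen. SLC39A1 was the most abundant of the set, at 106 and 112 FPKM. SLC30A1 and SLC39A14 thus came from a set that was evenly split between the libraries.

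The other lists were read against the shares of all genes with 10 or more expected counts in each library, 7.62% upward and 11.1% downward, and with so few genes a count of 0 or 1 is near that background. Genes that handle copper, which metallothioneins also bind, showed 0 of 11 at 1.5 or more and 1 at 1/1.5 or less, with a median log2 ratio of 0.06. The 1 was ATP7B, a copper exporter with 222 and 118 expected counts, or 0.61 and 0.29 FPKM, whose ratio was 0.475 (0.405 to 0.641) and which is named after its value was seen. SOD1, the most abundant of them with DMSO but not with FIN56, was at 151 and 131 FPKM. Metal and oxidative stress genes that share inducers with metallothioneins showed 0 of 10 past the threshold in either direction, with a median of 0.10. NQO1, the most abundant, was at 410.1 and 316 FPKM. HMOX1, named after its values were seen, had 119 and 191 expected counts. Its count ratio was 1.54 (1.22 to 1.96) and its FPKM ratio 1.37. Its counts and FPKM imply effective lengths of 1238 bases with DMSO and 1398 with FIN56. Of 8 glucocorticoid response genes, 0 of the 7 above 0 in both libraries passed the threshold, with a median of 0.16. ERRFI1, the most abundant, was at 27.9 and 38.5 FPKM.

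**Figure D4:**
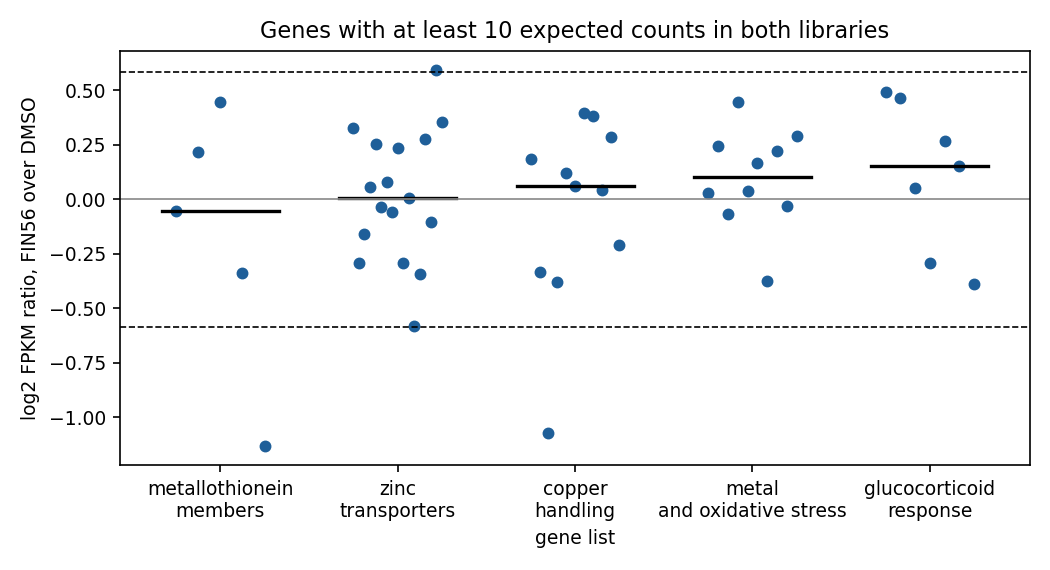
Log2 FPKM ratio by gene list, for genes with 10 or more expected counts in each library; black bars are medians and dashed lines mark ratios of 1.5 and 1/1.5. The lowest point of the metallothioneins is MT2A at −1.13, and the points of the oxidative stress and glucocorticoid lists lie between the dashed lines.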

How the data were processed

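RNA was measured in 1 DMSO and 1 FIN56 library. Per the labels, the authors used FastQC 0.11.7, STAR 2.6.1a, RSEM 1.3.1 and DESeq2 1.26.0 on GRCh38. The methods describe tumor libraries, and the same steps are taken to hold here. The deposited expected counts have no scaling. The deposited FPKM values are divided by effective length and library size, the deposited TPM values are shares of all transcripts, and the deposited rlog values are on a log2 scale. All 8 per-sample columns were matched by name.

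The main value was the ratio of FPKM, FIN56 over DMSO, with thresholds of 1.5 and 1/1.5 in whole hundredths. Intervals are exact Clopper-Pearson intervals of the FIN56 share of rounded expected counts, scaled by totals. Steps were tested on simulated data. The values of some single genes are left out of the text. Members and lists were chosen with earlier results of these data known. Genes named are the members and, of each list, those past the threshold with an FPKM of at least 1 and the most abundant in DMSO. Markers, genes beside the cluster, metallothioneins named for their promoters, and those said to be named after their values were seen fall outside this rule. Alternatives were TPM, rlog, library totals, edgeR 4.0.16 TMM, DESeq2 1.42.0 size factors, centring in 10 bins of effective length from genes that had 50 or more expected counts in total, pseudocounts of 0.1 and 1 FPKM, minimums of 10 counts or 1 FPKM, and a threshold of 2. Positions, transcripts and coding sequences are from GENCODE release 44, and promoters from RefSeq. Python 3.11.15, numpy 2.4.6, scipy 1.17.1, pandas 2.3.3, matplotlib 3.10.9 and R 4.3.3 were used.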

Additional observations from a re-analysis of the deposited data

How the results depend on the processing

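No paired analysis was possible because only 1 library was made per group, so that none could be left out either. MT2A, MT1E and MT1X were below 1, and MT1M, MT1F, MTF1 and SLC30A1 above 1, in each of 9 scalings and pseudocounts. MT2A ranged from 0.455 to 0.720, and the highest value came from rlog. Genes at 1/1.5 or less numbered 1 in FPKM, 0 in rlog and 2 with a pseudocount of 0.1 FPKM, which adds MT1G, a gene at 0.14 and 0.00 FPKM. Zinc transporters at 1.5 or more numbered 1 in FPKM and 0 in rlog, after centring on effective length, with a pseudocount of 1 FPKM and at a threshold of 2. Those at 1/1.5 or less numbered 1 in FPKM and 0 in rlog, with pseudocounts of 0.1 or 1 FPKM, with at least 10 counts in both libraries, with at least 1 FPKM in either, and at a threshold of 2. That gene had 2 counts and 1 count. The summed metallothionein ratio of 0.501 was 0.512 in TPM, 0.515 with DESeq2 size factors and 0.509 over all metallothionein rows, each outside its counting interval. The cause was not tested for the rlog and centred values. The largest shift of the all-gene median was −0.03 (log2), with TMM. Depth limits MT1F, MT1G and MT1A.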
